A study of Homo sapiens with 12 samples.

Results

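The lysosomal proton pump and hydrolases are described here as a list of 40 genes, taken by symbol with no threshold on a measured value, and drawn up with earlier results of these data known: 9 subunits of the V1 sector of the V-ATPase, 7 of its V0 sector, 2 accessory subunits, 11 cathepsins, 5 further hydrolases (the glycosidases HEXA, GLB1, GAA and GUSB and the acid lipase LIPA), 3 membrane proteins (LAMP1, LAMP2 and MCOLN1) and the 3 transcription factors TFEB, TFE3 and MITF. All 40 were found among the 28395 genes of the count table, and all 40 were among the 13469 that passed the filter on low counts. Poly(A) RNA was sequenced from BEAS-2B, an immortalised human bronchial epithelial cell line, in 4 groups of 3 libraries that the series describes as biological triplicates. After 24 h in serum- and steroid-free medium, the groups were untreated cells (control), cells given TGF-β1 (40 pM for 24 h), cells given dexamethasone, a synthetic glucocorticoid (30 nM for 4 h), and cells given TGF-β1 and then dexamethasone (both). The series asks how TGF-β1 alters the response of epithelial cells to glucocorticoid. All groups share the one cell line and the starvation step. Whether the replicates came from separate passages is not given in the sources used here, so the p-values measure only the spread between these cultures. The main fit had group as its only term, so that spread includes differences shared by libraries of the same replicate number. Fits with the replicate number as a block are given as an alternative. Fits with omitted libraries were run only without the block.

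The V-ATPase is a rotary pump: its cytosolic V1 sector hydrolyses ATP, and its membrane V0 sector passes protons into the lumen of the lysosome. The acid lumen activates cathepsins, which cut proteins, and the glycosidases and lipase that take apart glycans, glycogen and lipids. TFEB, TFE3 and MITF are related factors that bind E-box sequences near the start sites of many lysosomal genes. An extended form of that E-box is known as the CLEAR element, and nutrient signalling through mTORC1 controls whether TFEB and TFE3 enter the nucleus.

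RefSeq promoters (GRCh38.p14, 250 bases before to 50 after the start site) matched 30 of the 40 genes. ATP6V1A, ATP6V1B2, ATP6V1C1, ATP6V1H, ATP6V0E1, CTSB, CTSK, CTSS, HEXA and LAMP2 had no entry. The 120 bases before the start site are printed for 5 genes, picked by RNA response to set the shared E-box beside unlike responses. They are MCOLN1 (higher with TGF-β1), GAA (higher with both agents), CTSD, ATP6V0D1 (not called in any comparison) and ATP6V0E2 (lower with TGF-β1). CTSD was called higher with dexamethasone, but that call was lost with the replicate block and on omission of any single library compared. Capitals mark the E-box CACGTG, and each sequence is read 5′ to 3′ on the gene's strand.
MCOLN1: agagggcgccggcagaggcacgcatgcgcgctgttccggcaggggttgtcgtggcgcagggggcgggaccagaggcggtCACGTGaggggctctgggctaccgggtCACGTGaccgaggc
GAA: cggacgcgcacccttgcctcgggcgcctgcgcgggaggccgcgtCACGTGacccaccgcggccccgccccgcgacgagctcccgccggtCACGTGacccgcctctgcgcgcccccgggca
CTSD: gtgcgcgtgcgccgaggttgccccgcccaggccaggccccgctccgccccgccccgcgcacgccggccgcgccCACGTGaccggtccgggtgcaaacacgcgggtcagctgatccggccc
ATP6V0D1: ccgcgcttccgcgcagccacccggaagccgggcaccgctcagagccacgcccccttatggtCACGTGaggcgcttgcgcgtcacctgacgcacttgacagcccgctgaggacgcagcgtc
ATP6V0E2: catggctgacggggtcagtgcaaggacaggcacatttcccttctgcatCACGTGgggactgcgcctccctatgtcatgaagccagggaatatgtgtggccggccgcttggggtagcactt
The windows are chr19:7522504-7522623 on the plus strand for MCOLN1, chr17:80101461-80101580 on the plus strand for GAA, chr11:1763928-1764047 on the minus strand for CTSD, chr16:67481158-67481277 on the minus strand for ATP6V0D1 and chr7:149872848-149872967 on the plus strand for ATP6V0E2. Counting back from the start site, the E-boxes of MCOLN1 begin at -41 and -14 and those of GAA at -76 and -31. The single E-boxes of CTSD, ATP6V0D1 and ATP6V0E2 begin at -47, -59 and -72. The start site used for ATP6V0E2 lies inside the gene span given below (chr7:149872964-149880713), so its window overlaps the first bases of that span.

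Over the 300-base promoters, both strands searched, CACGTG was in 10 of the 30 members' promoters and in 7.26% of all 35116. The longer TCACGTGA, which contains that E-box, was in 6 (ATP6V0D1, ATP6V1G1, CTSA, GAA, LAMP1 and MCOLN1) and in 0.98% of all. Of the 6 genes with TCACGTGA, 1 (MCOLN1) was called in TGF-β1 against control, beside 32.8% of all genes tested, and none in dexamethasone against control, beside 10.4%. With the replicate number as a block in the fit, 4 of the 6 were higher with TGF-β1 (ATP6V1G1, GAA, LAMP1 and MCOLN1). Of all 13469 genes tested, 3308 were higher in that comparison with the block. GAA was also higher with dexamethasone with the block, as were 1461 of all genes tested. The full palindromic glucocorticoid response element was in none of the 30 promoters and in 0.00285% of all. The SMAD palindrome GTCTAGAC was in none of the 30 and in 0.202% of all. Sequences this rare would be missing from most sets of 30 promoters, so their absence does not set these genes apart. These counts describe letters in a short window and do not show binding.

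Library totals ran from 5861591 to 19727235 counts, with replicate 3 of each group at 17968961 or more and replicates 1 and 2 at 7008203 or less. Levels are in CPM, the usual depth-scaled count unit, on library sizes scaled by the trimmed mean of M-values (TMM). All 10 bronchial epithelial markers were measured, with summed levels of 3108 to 3901 CPM in control libraries, 3725 to 5501 with TGF-β1, 4334 to 6144 with dexamethasone and 6191 to 8854 with both. The 8 fibroblast markers summed to 259 to 294 CPM in control and 474 to 594 with TGF-β1. They summed to 321 to 384 with dexamethasone and 629.7 to 684 with both. Of the 8, 3 passed the filter: FBLN1, PDGFRB and COL14A1, with 44391, 11972 and 227 reads over the 12 libraries. The others had few reads: PDGFRA 51, TCF21 37, DCN 9, LUM 7 and DPT 5. The part of these markers in the results below was not tested. The growth protocol in the labels names A549 cells whereas every other label names BEAS-2B; the 9 alveolar and A549 markers summed to 23.6 to 50.0 CPM in control and 2.69 to 6.96 CPM with TGF-β1. Leukocyte markers, relevant because macrophages are rich in lysosomes, were at 22.0 to 24.8 CPM summed in control and 26.1 to 49.6 CPM with TGF-β1. Of the 12 listed, 5 passed the filter: CD68, LAPTM5, CSF1R, CD14 and FCGR3A, with 1938, 893, 688, 351 and 233 reads over the 12 libraries. AIF1 had 0 reads in the control libraries, PTPRC 3 and LYZ 2. Markers of ionocytes, an airway cell type rich in V-ATPase, summed to 1.67 to 3.88 CPM in control, and none of the 8 passed the filter. In these bulk RNA samples, fewer cells of a type and less RNA per cell cannot be told apart.

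In TGF-β1 against control, 12 of the 40 genes were called at an adjusted p under 0.05 by edgeR's quasi-likelihood test, 7 higher and 5 lower. That is 30.0% of the genes, beside 32.8% of all genes tested (16.2% higher and 16.6% lower). With the replicate number as a block, 13 were higher and 10 lower, beside 50% of all genes. The median log2 fold change over the 40 was 0.05, against -0.01 over all genes. By role, 2 of 9 V1 and 1 of 7 V0 subunits were lower and none higher, 1 of 2 accessory subunits was higher, 3 of 11 cathepsins were higher and 1 lower, and TFEB was the 1 factor of 3 called. Control and TGF-β1 libraries did not overlap for 15 of the 40, beside 44.8% of all genes. Directions are relative to the median gene: scaled by library size alone, the median of all genes was -0.217 rather than -0.009, 22.4% rather than 49.5% of all calls were higher, and 2 of the 40 (TFEB and MCOLN1) were higher and 11 lower. Under that scaling the calls of ATP6AP2 (0.06), CTSB (0.87), CTSV (0.43), CTSZ (0.11) and GLB1 (0.22) ended. Without the filter on low counts those of CTSB (adjusted p = 0.102), CTSV (0.0925) and GUSB (0.0828) ended. In the plot of effects by gene, the filled points with TGF-β1 lie on both sides of 0, and 2 pump isoforms, ATP6V1B1 and ATP6V0E2, lie furthest to the left.

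**Figure D1:**
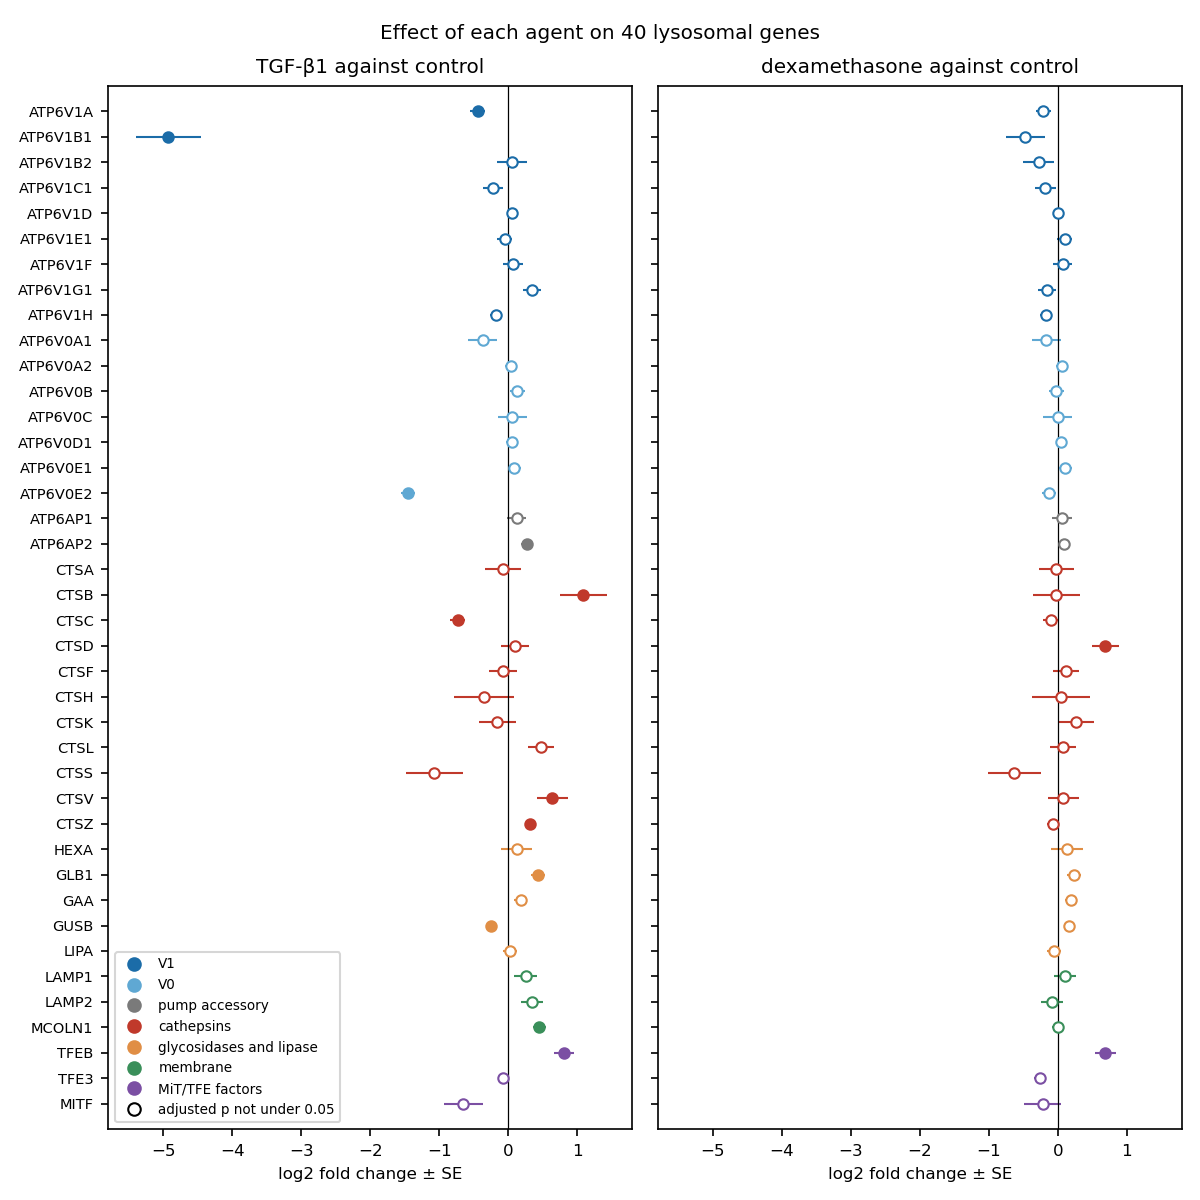
Log2 fold change with its standard error for the 40 genes, by role, in TGF-β1 against control (left) and dexamethasone against control (right); filled points have an adjusted p under 0.05. With TGF-β1 7 genes were called higher and 5 lower, and with dexamethasone CTSD and TFEB were called.

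Among V1 subunits, ATP6V1B1 fell with TGF-β1 and ATP6V1A fell by less, and the other 7 were not called. ATP6V1B1 (chr2:70935900-70965431, GRCh38.p14) encodes the B1 isoform of the ATP-binding B subunit, known from acid-secreting kidney and epididymal cells and from the inner ear. It stood at 5.31, 6.98 and 6.42 CPM in the control libraries and at 0, 0 and 0.337 CPM with TGF-β1. It was at 3.70, 3.87 and 5.50 CPM with dexamethasone, and at 0.324, 0.174 and 0.122 CPM with both. The 6 libraries given TGF-β1 lie below the 6 others with no overlap. Summed over libraries, 213 control reads stood against 6 reads with TGF-β1, a depth-scaled ratio of 31.6 (exact 95% interval 14.3 to 87.0, counting error only). The fitted log2 fold change was -4.93 ± 0.47 SE (adjusted p = 2.36e-06) in TGF-β1 against control and -4.57 ± 0.50 SE (adjusted p = 1.01e-05) in both against dexamethasone. All 6 reads with TGF-β1 came from replicate 3. Without that library the other two were at 0, the level was at least 25.6-fold lower than in control (floor of 3 counts over the group), and the fitted value, which is then no bound, was -8.95. The difference of dexamethasone against control was -0.47 ± 0.28 SE (adjusted p = 0.425).

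The ubiquitous isoform ATP6V1B2 did not share that pattern. It was at 165, 138 and 162 CPM in control and at 173, 111 and 198 CPM with TGF-β1, with a log2 difference of 0.05 ± 0.22 SE (adjusted p = 0.879). Per kilobase of exon, ATP6V1B1 made up 10.6% ± 2.16 (SD, n = 3) of the summed B1 and B2 level in control and 9.06% ± 2.07 (SD, n = 3) with dexamethasone. With TGF-β1 that share was 0.164% ± 0.285 (SD, n = 3), and with both 0.386% ± 0.177 (SD, n = 3). The counts for ATP6V1B1 carry 1 uncertainty: GENCODE assigns transcripts that run through it to the neighbouring gene VAX2. Of the 50-base stretches of ATP6V1B1, 59.1% are shared with transcripts of other genes, most often those of VAX2. VAX2 was at 2.27, 3.26 and 3.24 CPM in control and at 1.05, 1.08 and 0.953 CPM with TGF-β1, and its 3 TGF-β1 values lie below its 3 control values. The antisense gene ATP6V1B1-AS1 was at 0.183 CPM on average in control.

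**Figure D2:**
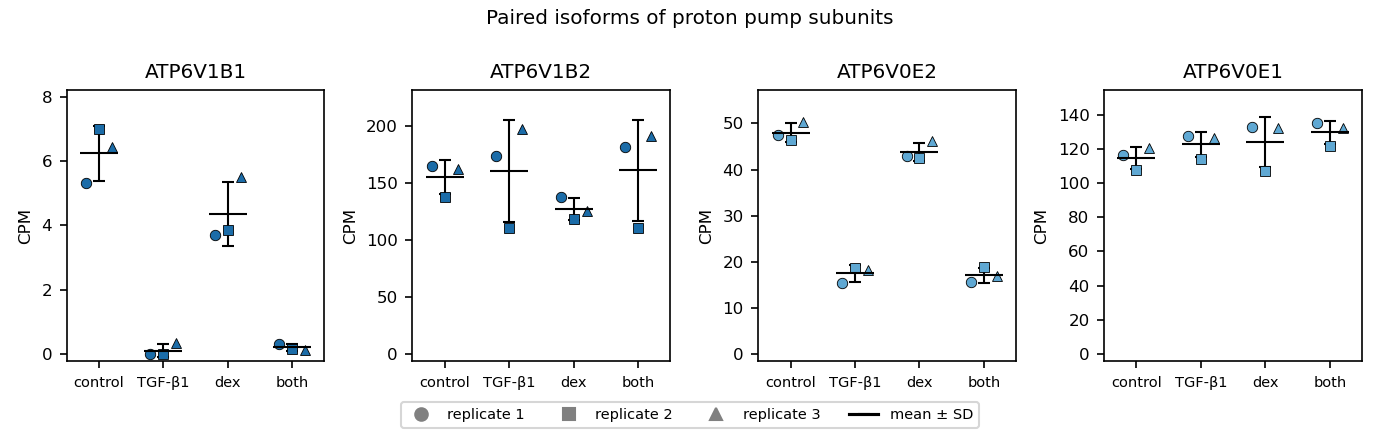
CPM in each of the 12 libraries for the isoform pairs ATP6V1B1 and ATP6V1B2, and ATP6V0E2 and ATP6V0E1; symbols mark replicate numbers, horizontal bars the mean and error bars the SD (n = 3). The 6 libraries given TGF-β1 lie below the 6 others for ATP6V1B1 and ATP6V0E2, and overlap them for ATP6V1B2 and ATP6V0E1.

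ATP6V1A encodes the catalytic A subunit. Its level was 103, 118 and 118 CPM in control, 72.4, 86.1 and 91.8 CPM with TGF-β1, 91.7, 103 and 99.9 CPM with dexamethasone and 64.8, 81.1 and 81.3 CPM with both. It fell with TGF-β1 by 0.44 ± 0.11 SE on the log2 scale (adjusted p = 0.0065), and was lower in 3 of 3 same-numbered pairs of libraries. In both against dexamethasone it was -0.37 ± 0.11 SE (adjusted p = 0.0184), a call that ended without Dex replicate 2 (-0.32), Dex replicate 3 (-0.36) or Dex_TGFb1 replicate 1 (-0.27). That call also ended without replicate 1, replicate 2 or replicate 3 of every group. Relative to control ATP6V1A was -0.21 with dexamethasone alone (adjusted p = 0.315, and 0.00768 with the replicate block). ATP6V1E1, a peripheral stalk subunit, was at 98.0, 79.4 and 90.3 CPM with dexamethasone and 74.4, 69.4 and 73.5 CPM with both, a log2 difference of -0.30 ± 0.11 SE (adjusted p = 0.047). That call ended in 5 of the 6 single-library omissions: without Dex replicate 1 (-0.21), Dex replicate 3 (-0.29), or Dex_TGFb1 replicate 1 (-0.32), 2 (-0.27) or 3 (-0.31). It also ended with DESeq2 (adjusted p = 0.0636), without the filter on low counts (0.0609) and with only the compared groups in the fit. ATP6V1H, a regulatory subunit, was called in both against control (-0.37 ± 0.09 SE, adjusted p = 0.00784), and with the block also in both against dexamethasone (adjusted p = 0.0268). ATP6V1G1, another stalk subunit, was at 69.3 CPM on average in control and 87.6 with TGF-β1, with an adjusted p of 0.0538, or 8.58e-05 with the block. The remaining V1 genes, ATP6V1C1, ATP6V1D and ATP6V1F, had log2 differences between -0.22 and 0.07 with TGF-β1 and were not called. With the block ATP6V1C1 was lower in that comparison (adjusted p = 0.00949).

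Among V0 subunits, ATP6V0E2 fell with TGF-β1, and the other 6 were not called. The e subunits are small membrane proteins of the sector, and ATP6V0E2 (chr7:149872964-149880713) is the less widely expressed of the pair. It stood at 47.5, 46.4 and 50.2 CPM in control, 15.4, 18.7 and 18.3 CPM with TGF-β1, 43.0, 42.5 and 46.1 CPM with dexamethasone and 15.6, 18.8 and 16.97 CPM with both. The groups with and without TGF-β1 do not overlap. The log2 fold change was -1.45 ± 0.10 SE (adjusted p = 1.79e-07) in TGF-β1 against control and -1.36 ± 0.10 SE (adjusted p = 3.83e-07) in both against dexamethasone. ATP6V0E1 was at 116, 108 and 120 CPM in control and 128, 114 and 126 CPM with TGF-β1, a log2 difference of 0.09 ± 0.09 SE (adjusted p = 0.469). Per kilobase, ATP6V0E2 made up 9.15% ± 0.233 (SD, n = 3) of the pair in control and 3.33% ± 0.488 (SD, n = 3) with TGF-β1. ATP6V0E2 overlaps its antisense gene ATP6V0E2-AS1, which was at 2.69 CPM in control and 1.51 CPM with TGF-β1 on average. The library kit named in the labels does not mark strand, so antisense reads cannot be told apart.

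ATP6V0C, the proton-carrying ring subunit, had the highest control level per kilobase of the 40 genes, 200 CPM per kilobase. It stood at 304, 240 and 356 CPM in control and 344, 233 and 364 CPM with TGF-β1, and the groups overlapped. In GENCODE, transcripts of other genes share 65.7% of the 50-base stretches of ATP6V0C, so its count is uncertain. ATP6V0A1, an isoform of the large proton-channel subunit, was at 69.6, 55.6 and 78.5 CPM in control and 59.6, 39.6 and 58.9 CPM with TGF-β1. Its log2 difference was -0.37 ± 0.21 SE, with an adjusted p of 0.207, or 7.37e-05 with the block. ATP6V0A2, ATP6V0B and ATP6V0D1 had log2 differences of 0.04 to 0.13 with TGF-β1.

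Of the accessory subunits, ATP6AP2, also known as the prorenin receptor, rose slightly with TGF-β1. It was at 152, 151 and 150.3 CPM in control, 179, 168 and 198 CPM with TGF-β1, 157.5, 169 and 157.5 CPM with dexamethasone, and 176, 169 and 193 CPM with both. The log2 fold change with TGF-β1 was 0.27 ± 0.08 SE (adjusted p = 0.0171). The call ended without TGFb1 replicate 3 (0.20) or control replicate 3 (0.26). In both against control it was 0.25 ± 0.08 SE (adjusted p = 0.0224), but -0.01 when scaled by library size alone, and the call ended without Dex_TGFb1 replicate 3 (0.19) or control replicate 3 (0.25). ATP6AP1 was at 299.8 CPM on average in control and 326 CPM with TGF-β1, with an adjusted p of 0.553, or 0.0393 with the block.

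Of the 11 cathepsins, CTSB, CTSV and CTSZ rose with TGF-β1, CTSC fell, and 7 were not called. CTSB encodes an abundant cysteine protease that acts in the lysosome and, when secreted, on matrix proteins. It was at 904, 566 and 831 CPM in control, 1927, 989 and 1974 CPM with TGF-β1, 909, 546 and 811 CPM with dexamethasone, and 1930.0, 938 and 1848 CPM with both. Replicate 2 was the lowest of its group in all 4 groups, and yet each TGF-β1 library lay above every library without TGF-β1. The log2 fold change was 1.09 ± 0.34 SE (adjusted p = 0.0344) in TGF-β1 against control and 1.06 ± 0.34 SE (adjusted p = 0.0391) in both against dexamethasone. Within same-numbered pairs the TGF-β1 to control ratios were 1.09, 0.80 and 1.25 on the log2 scale, and the blocked fit gave 1.05 ± 0.08 SE (adjusted p = 6.62e-07). Without the block, the call in TGF-β1 against control ended without TGFb1 replicate 1 (0.95) or 3 (0.93), or without control replicate 2 (0.91) or 3 (1.14). In both against dexamethasone it ended without Dex replicate 2 (0.88) or 3 (1.11), or Dex_TGFb1 replicate 1 (0.88) or 3 (0.92).

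CTSC encodes dipeptidyl peptidase I, which activates granule serine proteases in leukocytes. It was at 54.9, 52.9 and 54.4 CPM in control, 28.9, 38.0 and 31.1 CPM with TGF-β1, 53.2, 43.4 and 54.5 CPM with dexamethasone and 35.5, 35.5 and 34.0 CPM with both. The groups with and without TGF-β1 do not overlap. Its log2 fold change was -0.73 ± 0.11 SE (adjusted p = 1.78e-04) in TGF-β1 against control and -0.53 ± 0.11 SE (adjusted p = 0.00213) in both against dexamethasone. The latter call ended without replicate 1 or replicate 3 of every group.

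CTSV, a cysteine protease close to cathepsin L, was at 23.8, 18.9 and 28.3 CPM in control, 43.3, 29.4 and 39.8 CPM with TGF-β1, 28.8, 17.9 and 29.01 CPM with dexamethasone and 46.5, 30.6 and 37.6 CPM with both. With TGF-β1 its log2 fold change was 0.64 ± 0.22 SE (adjusted p = 0.0366). The call ended without TGFb1 replicate 1 (0.54) or 3 (0.59), or without control replicate 1 (0.64) or 2 (0.51). In both against dexamethasone it was 0.58 ± 0.21 SE, with an adjusted p of 0.0544, or 5.17e-05 with the block. CTSL itself was at 62.9, 46.2 and 71.4 CPM in control and 90.2, 63.4 and 97.1 CPM with TGF-β1. Its log2 difference was 0.47 ± 0.19 SE, with an adjusted p of 0.0812, or 1.90e-06 with the block. CTSZ, a carboxypeptidase, rose with TGF-β1 (0.32 ± 0.08 SE on the log2 scale, adjusted p = 0.00886), from 253, 269.9 and 232 CPM to 331, 299.5 and 312 CPM.

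CTSD encodes the main aspartic protease of the lysosome, and it was the cathepsin called with dexamethasone. It stood at 418, 374 and 396 CPM in control, 612, 718 and 594 CPM with dexamethasone, 462, 278 and 530.1 CPM with TGF-β1, and 642, 526 and 750.2 CPM with both. All 3 dexamethasone libraries lie above the 3 control libraries, whereas the TGF-β1 libraries lie on both sides of control. Its log2 fold change in dexamethasone against control was 0.69 ± 0.20 SE (adjusted p = 0.0448, 0.0682 with the block and 0.191 without the filter on low counts). The call also ended with the omission of any 1 of the 6 libraries compared, with values of 0.72, 0.60 and 0.75 without Dex replicates 1, 2 and 3, and 0.74, 0.65 and 0.68 without control replicates 1, 2 and 3. In both against TGF-β1 the difference was 0.59 ± 0.20 SE (adjusted p = 0.106), and in both against control 0.69 ± 0.20 SE (adjusted p = 0.0168). That last call ended without Dex_TGFb1 replicate 3 (0.56), control replicate 2 (0.66) or control replicate 3 (0.69). In GENCODE, transcripts of other genes share 45.0% of the 50-base stretches of CTSD, so its count is uncertain.

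**Figure D3:**
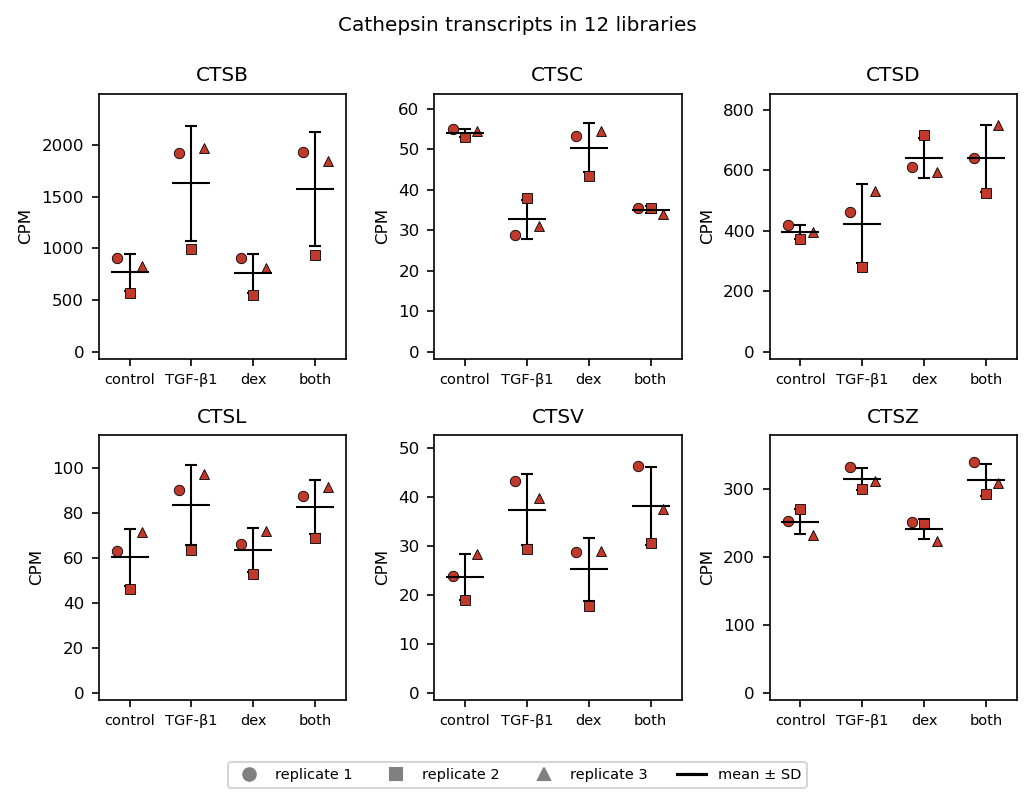
CPM in each of the 12 libraries for 6 cathepsins; symbols mark replicate numbers, horizontal bars the mean and error bars the SD (n = 3). CTSB and CTSZ are higher, and CTSC lower, in all 6 libraries given TGF-β1, and CTSD is higher in the 3 dexamethasone libraries than in the 3 control libraries.

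CTSS, a protease of antigen-presenting cells, was at 3.49, 2.17 and 1.98 CPM in control and 1.13, 0.174 and 1.03 CPM with both. It was called in that comparison (-1.50 ± 0.42 SE, adjusted p = 0.0127), and with the block also in TGF-β1 against control (adjusted p = 0.0187). CTSK, known from osteoclasts, was between 1.85 and 3.65 CPM in all 12 libraries. CTSF was between 13.3 and 23.7 CPM, and CTSH between 5.57 and 20.1 CPM; neither was called without the block. With it CTSH was lower in TGF-β1 against control (adjusted p = 0.0288), both against dexamethasone (0.00152) and both against control (0.00265). CTSA, the protective protein of beta-galactosidase, was between 207 and 345 CPM and was not called.

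Of the 5 other hydrolases, GLB1 rose and GUSB fell with TGF-β1. GLB1 encodes lysosomal beta-galactosidase, the enzyme behind the common senescence stain. It was at 74.0, 76.2 and 72.7 CPM in control, 103, 89.2 and 107 CPM with TGF-β1, 96.4, 80.5 and 86.7 CPM with dexamethasone and 116, 91.7 and 110 CPM with both. With TGF-β1 its log2 fold change was 0.43 ± 0.10 SE (adjusted p = 0.00529). With dexamethasone it was 0.24 ± 0.10 SE, with an adjusted p of 0.184, or 0.0121 with the block. The call of GLB1 with TGF-β1 ended without replicate 1 or replicate 3 of every group. GUSB encodes beta-glucuronidase, a gene often used as a reference for PCR. It was at 69.3, 76.8 and 72.4 CPM in control and 60.8, 58.8 and 63.5 CPM with TGF-β1, at 83.4, 82.8 and 78.8 CPM with dexamethasone and 57.5, 60.6 and 61.2 CPM with both. Its log2 fold change was -0.25 ± 0.07 SE (adjusted p = 0.0163) in TGF-β1 against control and -0.45 ± 0.07 SE (adjusted p = 3.27e-04) in both against dexamethasone. The first of these calls ended without TGFb1 replicate 2 (-0.23) or control replicate 2 (-0.22). It also ended without replicate 1, replicate 2 or replicate 3 of every group.

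GAA encodes acid alpha-glucosidase, which breaks down glycogen. It was at 149.9, 148 and 152 CPM in control, 165, 158 and 186 CPM with TGF-β1, 176, 153 and 182 CPM with dexamethasone and 199, 193 and 215 CPM with both. Each of the 9 treated libraries lies above the 3 control libraries. Neither agent alone gave a call, with log2 differences of 0.18 ± 0.09 SE (adjusted p = 0.125) with TGF-β1 and 0.19 ± 0.09 SE (adjusted p = 0.225) with dexamethasone. With the block these adjusted p-values were 0.00687 and 0.0115; scaled by library size alone, the difference with TGF-β1 was -0.03. In both against control the log2 fold change was 0.43 ± 0.09 SE (adjusted p = 0.00123), and in both against dexamethasone 0.24 ± 0.09 SE (adjusted p = 0.0425). The latter call ended without Dex replicate 2 (0.19) or Dex_TGFb1 replicate 1 (0.26) or 3 (0.20). It also ended without replicate 1, replicate 2 or replicate 3 of every group. HEXA was not called. LIPA was not called either, and its locus overlaps IFIT1, IFIT2 and IFIT3, of which IFIT2 fell from 18.1 to 2.78 CPM on average with TGF-β1, so its value is uncertain.

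Of the membrane proteins, MCOLN1, the calcium channel TRPML1 of the lysosome, rose with TGF-β1. It was at 50.6, 49.4 and 49.2 CPM in control, 71.7, 64.0 and 68.8 CPM with TGF-β1, 53.8, 43.6 and 51.7 CPM with dexamethasone and 67.1, 64.6 and 67.0 CPM with both. The libraries with and without TGF-β1 do not overlap. Its log2 fold change was 0.45 ± 0.09 SE (adjusted p = 0.00107) in TGF-β1 against control and 0.41 ± 0.09 SE (adjusted p = 0.0023) in both against dexamethasone. LAMP1 and LAMP2, the abundant glycoproteins of the lysosomal membrane, were not called. LAMP2 was at 169, 125 and 169 CPM in control and 194, 160.2 and 232 CPM with TGF-β1, with an adjusted p of 0.128, or 3.02e-05 with the block. LAMP1 was at 452, 376 and 471 CPM in control and 522, 428 and 589 CPM with TGF-β1, with an adjusted p of 0.254, or 3.78e-04 with the block.

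Among the transcription factors, TFEB rose with either agent. It stood at 14.4, 12.7 and 13.0 CPM in control, 23.8, 26.4 and 20.6 CPM with TGF-β1, 22.8, 22.0 and 20.2 CPM with dexamethasone and 26.6, 33.8 and 22.6 CPM with both. All 9 treated libraries lie above the 3 control libraries. Its fitted log2 fold change was 0.81 ± 0.15 SE (adjusted p = 9.44e-04) with TGF-β1, 0.69 ± 0.15 SE (adjusted p = 0.00707) with dexamethasone and 1.03 ± 0.15 SE (adjusted p = 1.09e-04) with both. The call with dexamethasone ended without replicate 1 of every group (0.70). In the presence of TGF-β1 the effect of dexamethasone was 0.22 ± 0.15 SE (both against TGF-β1, adjusted p = 0.533). The difference between these effects, the interaction, was -0.47 ± 0.21 SE (adjusted p = 0.64, and 0.0936 with the block). RNA levels say nothing of where the TFEB protein is.

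TFE3, the most abundant of the 3 factors per kilobase, was at 101, 114 and 96.4 CPM in control, 100.4, 98.2 and 98.0 CPM with TGF-β1, 85.5, 93.3 and 81.6 CPM with dexamethasone and 84.8, 86.5 and 79.0 CPM with both. In dexamethasone against control its log2 difference was -0.26 ± 0.08 SE, with an adjusted p of 0.0641, or 0.0018 with the block. In both against control the log2 fold change was -0.32 ± 0.08 SE (adjusted p = 0.00847), a call that ended without control replicate 2 (-0.24). MITF was at 6.52, 7.45 and 6.76 CPM in control, 2.80, 5.41 and 4.71 CPM with TGF-β1, 3.40, 7.74 and 6.42 CPM with dexamethasone and 5.51, 4.70 and 3.59 CPM with both. Its log2 difference with TGF-β1 was -0.65 ± 0.28 SE, with an adjusted p of 0.0947, or 0.021 with the block.

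**Figure D4:**
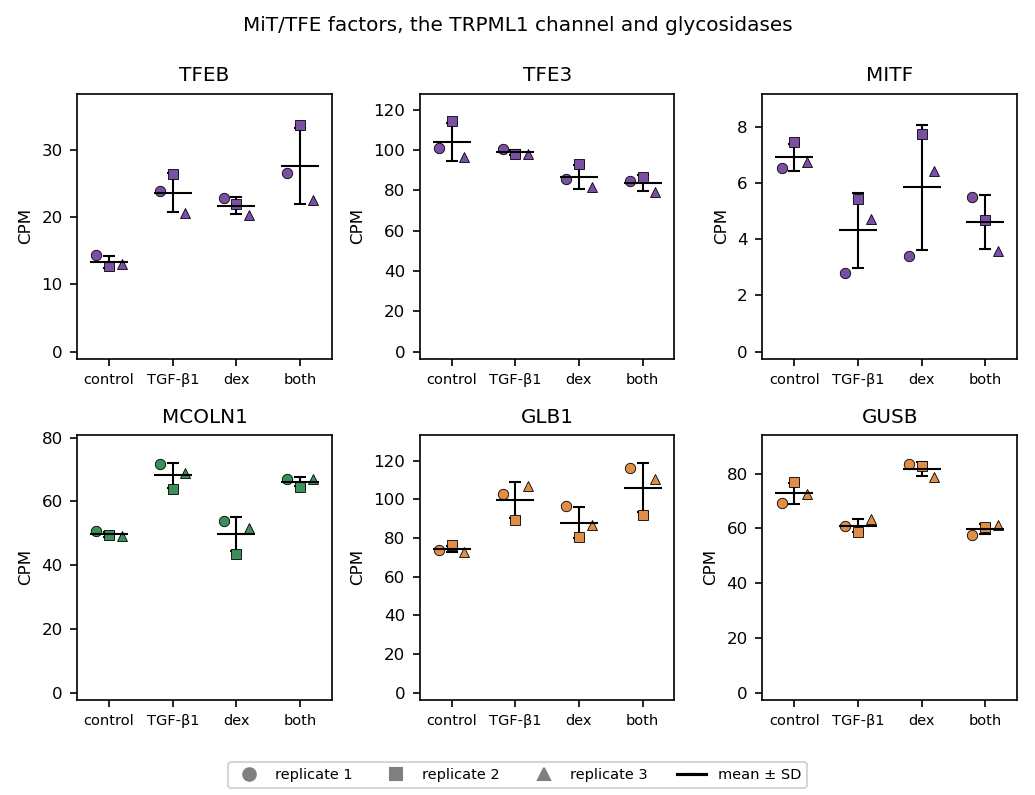
CPM in each of the 12 libraries for TFEB, TFE3, MITF, MCOLN1, GLB1 and GUSB; symbols mark replicate numbers, horizontal bars the mean and error bars the SD (n = 3). TFEB is above control in all 9 treated libraries, and MCOLN1 separates the libraries by TGF-β1 alone.

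Dexamethasone was given for 4 h and TGF-β1 for 24 h, so the 2 agents are set against control after unlike times. In dexamethasone against control, 2 of the 40 genes were called, CTSD and TFEB, both higher. That is 5.0% of the genes, beside 10.4% of all genes tested (5.54% higher and 4.9% lower); with the block 3 were higher and 2 lower, beside 22.2%. Control and dexamethasone libraries did not overlap for 10 of the 40, beside 25.7% of all genes. In both against TGF-β1, none of the 40 was called by edgeR, beside 8.11% of all genes (5.09% higher and 3.01% lower), and 5 did not overlap between groups, beside 20.9%. There, CTSD, GAA and TFE3 had an unadjusted p under 0.05, DESeq2 called CTSD (adjusted p = 0.0243), and the blocked fit called 1 higher (GAA) and 2 lower (TFE3 and ATP6V1G1), beside 17.5% of all genes. In the test of the interaction none was called by edgeR or by DESeq2, beside 0.884% of all genes by edgeR (0.483% higher and 0.401% lower), none was called with the block, beside 4.78%, and TFEB alone had an unadjusted p under 0.05. A different response to dexamethasone in the presence of TGF-β1 was not shown for these genes, and the standard errors above give the precision of each.

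In both against dexamethasone, 4 genes were higher and 6 lower, 25.0% of the 40 beside 32.3% of all genes (15.9% higher and 16.4% lower), and 14 did not overlap, beside 42.9%; with the block 15 were higher and 9 lower, beside 49.9%. In both against control, 9 were higher and 8 lower, 42.5% of the 40 beside 36.6% of all (18.5% higher and 18.1% lower), and 20 did not overlap, beside 47.1%; with the block 17 were higher and 13 lower, beside 53.1%. Scaled by library size alone, the 4 higher calls in both against dexamethasone ended, at 0.85 for CTSB, 0.18 for CTSZ, 0.04 for GAA and 0.21 for MCOLN1. In both against control only TFEB (0.78) and GLB1 (0.25) were then higher. The effect of TGF-β1 was measured in separate libraries without and with dexamethasone. Across the 40 genes those effects had a Pearson correlation of 0.988, or 0.952 without ATP6V1B1, and 0.882 across all genes tested; genes are not independent replicates. CTSB, CTSZ and MCOLN1 were called higher in both comparisons, and ATP6V0E2, ATP6V1A, ATP6V1B1, CTSC and GUSB lower. The sign was the same for 35 of the 40, and for 82.4% of all genes. For the effect of dexamethasone without and with TGF-β1 the correlation was 0.77 across the 40 genes and 0.744 across all genes, and 25 of the 40 had the same sign, beside 67.2% of all genes.

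**Figure D5:**
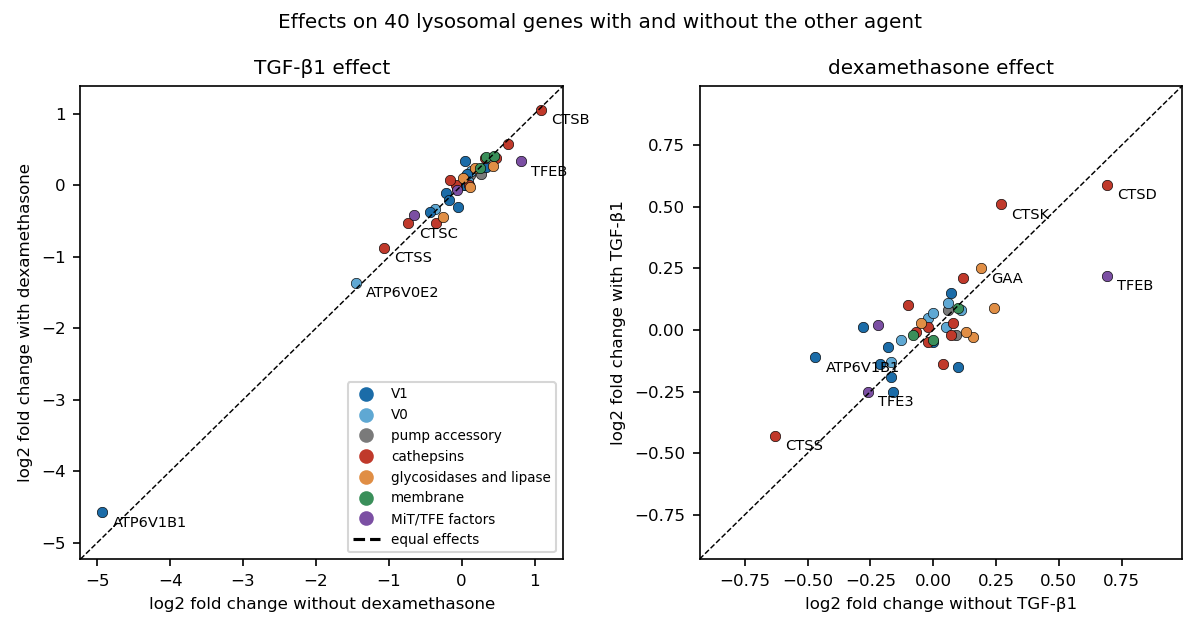
Log2 fold change of each of the 40 genes without the other agent (horizontal) and with it (vertical), for TGF-β1 (left) and dexamethasone (right); the dashed line marks equal effects. ATP6V1B1 and ATP6V0E2 lie at the lower end of the line for TGF-β1. TFEB lies under the line in both plots, where its distance from the line is the same interaction value, which was not called.

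Many of the 40 genes had a low level in replicate 2 of every group. In each of the 4 groups, replicate 2 was the lowest of the 3 libraries for 21 of the 40 genes (52.5%), beside 10.6% of all genes tested. It was the highest in all 4 groups for none of the 40, beside 8.68% of all genes. The 21 include the pump genes ATP6V0C, ATP6V0A1 and ATP6AP1, the hydrolases CTSA, CTSB, CTSH, CTSL, CTSV and HEXA, and LAMP1 and LAMP2. Averaged over the 4 groups, the log2 ratio of replicate 2 to the mean of replicates 1 and 3 was -1.14 for CTSH, -0.82 for CTSB, -0.62 for CTSA and -0.51 for ATP6V0C. TFEB (0.16), TFE3 (0.11) and MITF (0.35) had ratios above 0. The median was -0.22 over the 40 genes and -0.01 over all genes tested. Replicates 1 and 2 were of like depth, and the part of any batch in this was not tested.

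Genes of the same pathways outside the 40 were counted from lists of 131, of which 118 were tested. With TGF-β1, 11 were higher and 21 lower (27.1%, beside 32.8% of all genes), and with the block 30 and 40. Of 13 other pump genes tested, none was higher and 6 were lower (46.2%), and with the block 1 and 8. The 4 with the largest changes were NCOA7 (-1.30 ± 0.18 SE), a TLDc protein that binds the pump, the regulators WDR7 (-0.70 ± 0.10 SE) and DMXL1 (-0.64 ± 0.18 SE), which promote V1 and V0 assembly, and DMXL2 (-0.58 ± 0.15 SE). The adjusted p-values of these 4 ran from 1.09e-04 for NCOA7 to 0.0167 for DMXL1, and NCOA7 fell from 54.4 ± 8.3 to 22.0 ± 2.8 CPM (SD, n = 3).

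Of 36 other lysosomal hydrolases tested, 2 were higher and 4 lower with TGF-β1 (16.7%, beside 32.8% of all genes), and with the block 8 and 10. FUCA1, alpha-fucosidase, fell from 17.3 ± 2.2 to 5.37 ± 0.53 CPM (SD, n = 3; log2 fold change -1.65 ± 0.15 SE, adjusted p = 1.75e-06). SGSH, the heparan sulfamidase, fell from 55.8 ± 8.0 to 25.7 ± 1.8 CPM (SD, n = 3; -1.11 ± 0.13 SE, adjusted p = 2.00e-05). CTSO was lower (-0.81 ± 0.22 SE) and ARSB, arylsulfatase B, higher (0.71 ± 0.11 SE). With dexamethasone 1 of these hydrolases was called (2.78%, beside 10.4% of all genes), or 2 higher and 2 lower with the block. It was ARSA, arylsulfatase A (0.44 ± 0.10 SE, adjusted p = 0.0113), named after its value was seen.

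Of 24 other membrane proteins tested, 3 were higher and 4 lower with TGF-β1 (29.2%, beside 32.8% of all genes), and with the block 8 and 7. LAMP3 was -1.65 ± 0.29 SE, SIDT2, an RNA transporter of the lysosome, 1.12 ± 0.12 SE, MFSD12 1.07 ± 0.12 SE and CLN3 -0.67 ± 0.10 SE. Of 12 genes for delivery of enzymes to the lysosome, 2 were higher and 1 lower with TGF-β1 (25.0%, beside 32.8%), and 2 were higher with dexamethasone (16.7%, beside 10.4%). With the block these counts were 5 and 3 with TGF-β1, and 2 higher and 1 lower with dexamethasone. CLN8, which carries enzymes out of the endoplasmic reticulum, was 0.88 ± 0.13 SE with TGF-β1. SORT1, the sorting receptor sortilin, rose with dexamethasone from 290.7 ± 37 to 600.5 ± 24 CPM (SD, n = 3; log2 fold change 1.05 ± 0.18 SE, adjusted p = 0.00214). It also rose in both against TGF-β1 (0.99 ± 0.18 SE, adjusted p = 0.00429). Of 18 genes for the nutrient control of the factors, none was higher and 2 were lower with TGF-β1, FNIP2 (-0.44 ± 0.12 SE) and LAMTOR5 (-0.47 ± 0.15 SE), and none was called with dexamethasone. These are 11.1% and 0% of the list, beside 32.8% and 10.4% of all genes. With the block 2 were higher and 8 lower with TGF-β1, and 2 were higher with dexamethasone.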

How the data were processed

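Raw counts per Entrez gene, deposited as 1 table, were made by the authors with featureCounts against hg38, per the submitters' processing notes; aligner, annotation release and strand setting were not given in the sources used here. Another 6 count columns match no sample and were not used. Of 28395 identifiers, 27745 matched a RefSeq symbol. Genes were filtered with filterByExpr (minimum count 10; 13469 kept), scaled by TMM and tested with edgeR 4.0.16 (quasi-likelihood; limma 3.58.1, R 4.3.3) over all 12 libraries with group as the only term, Benjamini-Hochberg adjusted over all genes tested, threshold 0.05. Depth, given in the report, limits genes of a few CPM. The fit was tested on simulated data. Alternatives were other scalings, DESeq2 1.42.0, no filter, only the compared groups, omitted libraries and a replicate block.

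Replicate numbers come from the labels. Over 18 of 18 pairs of libraries with the same number, residuals from the group means correlated above 0.1 (0.25 to 0.541; -0.422 to 0.042 between different numbers), so the numbers pair the samples. The block lowered the common biological coefficient of variation from 0.122 to 0.0577. The main calls, the filled points of the plot of effects and the fits with omitted libraries leave this pairing out. With the block, 13 of the 40 genes were higher and 10 lower in TGF-β1 against control, rather than 7 and 5.

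The 40 genes and all lists were chosen with earlier results of these data known. Full statistics go to ATP6V1B1, TFEB, TFE3 and MITF, to up to 4 members per role with the largest called log2 fold change, and to up to 4 called genes of each other list; CTSZ, CTSL, CTSS, ATP6V1H, ATP6V0A1, ATP6V0C, ATP6V1G1, LAMP1, LAMP2 and the isoforms ATP6V1B2 and ATP6V0E1 were added after their values were seen. Coordinates and promoters are RefSeq, GRCh38.p14; shared 50-base stretches were counted in GENCODE v29 transcripts.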

Additional observations from a re-analysis of the deposited data

How the results depend on the processing

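With DESeq2 size factors, or with only the compared groups in the fit, no count of called members moved by over 1.5 times. Scaled by library size alone, TGF-β1 against control gave 2 higher and 11 lower members. In dexamethasone against control TFE3 was then lower, while CTSD and TFEB stayed higher. Both against dexamethasone gave 0 higher and 10 lower, and both against control 2 higher and 14 lower. The share of all calls that were higher went from 49.5% to 22.4% (TGF-β1 against control), 53.1% to 43.2% (dexamethasone against control), 49.3% to 22.9% (both against dexamethasone) and 50.6% to 21.0% (both against control). Under that scaling 3 values changed sign: ATP6AP2 in both against dexamethasone (-0.05) and both against control (-0.01), and GAA in TGF-β1 against control (-0.03). Without the filter, 1 member was higher in dexamethasone against control, 2 in both against dexamethasone and 5 in both against control. DESeq2's test called 1 higher in both against TGF-β1 and 7 in both against dexamethasone. Where only higher calls are given, the count of lower calls moved by no more than 1.5 times. With single libraries or replicate numbers left out, higher and lower calls ranged from 2 to 12 and 4 to 6 (TGF-β1 against control), 0 to 2 and 0 to 1 (dexamethasone against control), 0 to 1 and 0 to 0 (both against TGF-β1), 1 to 9 and 3 to 7 (both against dexamethasone), and 4 to 11 and 4 to 9 (both against control); the interaction stayed at 0. Fewer libraries were tested in these fits. Without replicate 1 of every group, or without replicate 3, the calls of ATP6AP2, CTSB and CTSV with TGF-β1 ended. So did those of CTSB and ATP6V1E1 in both against dexamethasone, of CTSD with dexamethasone, and of CTSD and ATP6AP2 in both against control. TFE3 in both against control lost its call without replicate 1. Counts moved up as well as down, and the cause of the changes was not tested. The share of all genes called under library-size scaling, without the filter, with DESeq2 or with omitted libraries is not given here. Replicates 1 and 2, at 7008203 counts or less, limit genes of a few CPM such as CTSS and CTSK.

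With the replicate number as a block, 13 higher and 10 lower members were called in TGF-β1 against control, beside 50% of all genes. In dexamethasone against control 3 were higher and 2 lower (beside 22.2%), and in both against TGF-β1 1 and 2 (beside 17.5%). In both against dexamethasone 15 were higher and 9 lower (beside 49.9%), and in both against control 17 and 13 (beside 53.1%). Of the other pathway genes, the block gave 30 higher and 40 lower with TGF-β1 against control.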

Other observations

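Autophagy genes, whose products deliver cargo to the lysosome, were tested as a list of 11. With TGF-β1, 3 were higher and 2 lower (45.5%, beside 32.8% of all genes), and 5 and 2 with the replicate block. ULK1, the kinase that starts autophagy, rose from 72.2 ± 1.9 to 226 ± 19 CPM (SD, n = 3; log2 fold change 1.64 ± 0.10 SE, adjusted p = 4.83e-08). WIPI1 (0.91 ± 0.17 SE) and GABARAPL1 (0.72 ± 0.17 SE) were also higher. SQSTM1, the cargo receptor p62, was lower with TGF-β1 (-0.55 ± 0.12 SE, adjusted p = 0.00303) and with dexamethasone (-0.51 ± 0.12 SE, adjusted p = 0.0126).

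Cystatins inhibit cysteine cathepsins, and 4 of the 8 listed were tested. CST6 rose with TGF-β1 from 6.70 ± 1.2 to 22.3 ± 4.2 CPM (SD, n = 3; 1.72 ± 0.21 SE, adjusted p = 2.79e-05), while CST3 (-0.46 ± 0.09 SE) and CSTB (-0.46 ± 0.13 SE) were lower. CST3, cystatin C, was higher with dexamethasone, both without TGF-β1 (0.57 ± 0.09 SE, adjusted p = 7.25e-04) and with it (0.35 ± 0.09 SE, adjusted p = 0.0321).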
